A study of Homo sapiens with 14 samples.

Results

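Ribosomal protein genes were taken as a set of housekeeping promoters in LX-2 cells, a human hepatic stellate cell line, and were followed through 4 antibodies and 2 matrices. The set held the autosomal protein-coding genes of GENCODE release 44 mapped to hg19 (GRCh37) whose symbol begins with RPL or RPS and a digit, or with RPLP, without the RPS6K kinases and RPS19BP1. By this rule 82 of 19229 autosomal protein-coding genes were members: 40 of the large subunit, 29 of the small subunit, 3 of the P-stalk, 8 paralog copies and 2 read-through loci. The rule reads symbols and no measured value, although the set was proposed with earlier results of these data known. RPSA and FAU, which encode ribosomal proteins under other names, lay outside the rule and were kept as a comparison.

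The cells were wild type and spent 2 days on a matrix that was either soft or stiff. CUT&Tag, in which an antibody guides a transposase that cuts and tags the DNA around its target, was run against H3K4me3, H3K27ac, H3K27me3 and phosphorylated JUN (p-JUN). There were 2 libraries per matrix for H3K4me3, H3K27me3 and p-JUN, and 1 merged peak list per matrix for H3K27ac, whose antibody label reads H3K27ac3. The stiff libraries of p-JUN have TCP in their titles, the study's word for tissue culture plastic, where those of the histone marks have 40K, so whether their surface was the same hydrogel is unknown. The study's methods speak of biological replicates for its sequencing, but the labels do not tie the libraries to separate cultures, so part of the spread between them may be technical. Among defining markers, H3K4me3 was called in all 4 libraries at 6 of 10 stellate cell and myofibroblast genes (ACTA2, COL1A1, PDGFRB, TAGLN, VIM and TIMP1). It was called in 1 library at COL3A1 and in none at COL1A2, LRAT and DES. It was called in no library at 4 of 4 hepatocyte and 2 of 2 endothelial genes. PECAM1, also planned as an endothelial marker, was not matched in the annotation and was left out. Of 3 leukocyte and Kupffer genes, CD14 was marked in all 4 libraries and PTPRC and CD68 in none. Of 3 cholangiocyte genes, EPCAM was marked in all 4 and KRT19 and KRT7 in none.

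Ribosomal proteins join ribosomal RNA to form the large and small subunits of the cytosolic ribosome, and every growing cell must make them in nearly equal amounts. Their genes are short, highly transcribed and scattered over the genome, and most begin transcription at a C within a run of pyrimidines, the 5′ terminal oligopyrimidine (TOP) start through which translation of their mRNAs is tied to growth signalling. H3K4me3 marks active promoters, H3K27ac active promoters and enhancers, and H3K27me3 genes silenced by Polycomb. JUN is a subunit of AP-1, a factor that stress, growth and matrix signals act upon.

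The TOP start was seen in the genome sequence at most members. A C at the annotated start of the canonical transcript followed by at least 4 more pyrimidines was present at 55 of 82 members (67.1%), against 871 of all 19229 genes (4.53%). It was present at 54 of 72 core members, which are the subunit and P-stalk genes, and at 1 of 8 paralog copies, RPL22L1. The 25 bases around a start (8 before it, then 17 from it) are shown for the longest tract, for P-stalk and p-JUN examples, and for genes without a tract, with the run of pyrimidines from a C start in capitals and all from hg19, 5′ to 3′ on the gene's strand.
RPL7A (large subunit, chr9:136215065-136215089, plus strand): tccctttcCTTTCTCTCTCCTCCCg
RPS24 (small subunit, chr10:79793613-79793637, plus strand): tcgtggttCTCTTTTCCTCCTTggc
RPLP2 (P-stalk, chr11:809959-809983, plus strand): ggcgccttCCTTTTCCTCCCTgtcg
RPLP1 (P-stalk, chr15:69745149-69745173, plus strand): cgcgagagCCCCTTTCCTCagctgc
RPS29 (small subunit, chr14:50053082-50053106, minus strand): gccagcttCTTCCTTTTacctcgtt
RPL29 (large subunit, chr3:52029895-52029919, minus strand): gcccctttCTCTTCCggttctaggc
RPL23A (large subunit, chr17:27046995-27047019, plus strand): gaacgagcattggagacccttttca
RPL39L (paralog copy, chr3:186857268-186857292, minus strand): gggaaatcgcggtcttagcatccgg
RPL3L (paralog copy, chr16:2004674-2004698, minus strand): gccctgccactcgacctctggcggc
RPL10L (paralog copy, chr14:47120968-47120992, minus strand): agttaagagagcgcattttgacttc
The tract of RPL7A ran for 16 bases, the longest of the members, and the median tract among the 55 genes was 8 bases. RPL3L and RPL10L, which had neither a tract nor any peak, are copies of RPL3 and RPL10 known for muscle and testis.

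A promoter peak was a peak within 1 kb of any annotated start, and its height was the deposited fold of its summit over the local background of the same library, with the tallest such peak taken. H3K4me3 was called at 80 of 82 members in all 4 libraries, with none in between: RPL3L and RPL10L had no peak in any. Over all genes, H3K4me3 was found in all 4 libraries at 63.3% and in at least 1 at 66%, in both soft libraries alone at 0.182% and in both stiff libraries alone at 0.218%. All 72 core members were marked. The 80 calls rested on 78 distinct peaks in each library, since the read-through loci RPL17-C18orf32 and RPS10-NUDT3 share those of RPL17 and RPS10, and 20 to 24 members shared a peak with the start of a gene outside the set.

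H3K27me3 was called at 0 of 82 members in any of its 4 libraries, where 10.3% of all genes had a peak in at least 1, 2.45% in all 4, 0.837% in both soft libraries alone and 0.0364% in both stiff libraries alone. The deposited H3K27me3 lists give no depth, and they covered 4.48% to 8.81% of all genes per library. RPL3L and RPL10L were therefore without a called peak of either mark. H3K27ac was called at 58 members on soft (70.7%) and 52 on stiff (63.4%), beside 32.7% and 24.5% of all genes. p-JUN was called at 61 and 55 members in the soft libraries and at 49 and 63 in the stiff libraries, where the shares of all genes were 49.1%, 47.0%, 41.4% and 49.8%. It was found in all 4 libraries at 47 members (57.3%), beside 38.9% of all genes, and in at least 1 at 68, beside 54.1%.

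**Figure D1:**
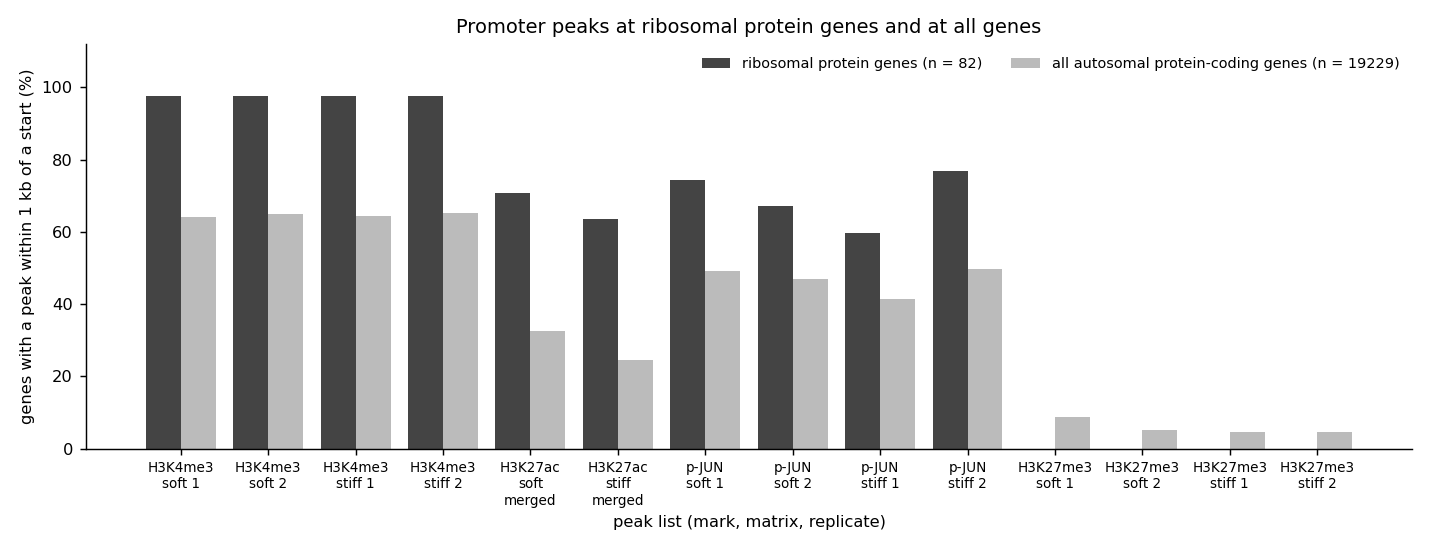
Share of genes with a peak within 1 kb of a start, in percent, for each of the 14 peak lists; dark bars are the 82 ribosomal protein genes and light bars all 19229 autosomal protein-coding genes. H3K4me3 stands at 97.6% of ribosomal protein genes in every library, H3K27me3 at 0, and H3K27ac and p-JUN vary between lists.

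The high p-JUN share went with the H3K4me3 mark. Among genes with H3K4me3 in all 4 libraries, p-JUN was found in all 4 of its libraries at 47 of 80 members and at 7070 of 12170 genes (58.1%), so the members stood close to other marked promoters.

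Heights of H3K4me3 at the 80 marked members were repeatable and differed several-fold between genes. The SD between members was 0.35 on the log2 scale of centred heights, against 0.07 between replicate libraries. Over all 12170 genes with a peak in all 4 libraries these SDs were 0.43 and 0.09, so this was not particular to the members. Among pairs of libraries, Pearson's r of log2 heights over these 80 genes was 0.94 to 0.96, a description over genes that share libraries. RPL23A, a large subunit protein at the exit of the nascent chain tunnel, was lowest, with 4.11 and 4.15 on soft and 3.96 and 3.94 on stiff. RPL41, one of the smallest proteins known, followed with 5.49 and 5.17 on soft and 5.90 and 5.98 on stiff. RPS2 had 5.76 and 5.98 on soft and 6.60 and 5.98 on stiff. All values of RPL23A lay below all values of RPL41. RPL41 was lower than RPS2 in each library, but their ranges overlapped. RPL3 and RPS12 completed the 5 lowest, between 5.79 and 7.15.

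At the other end RPL29, a large subunit protein that also binds heparin, had H3K4me3 heights of 12.8 and 13.9 on soft and 14.4 and 15.2 on stiff. RPS10, with the read-through locus on the same peak, had 13.9 and 13.99 on soft and 14.5 and 13.4 on stiff. A paralog copy, RPL26L1, had 13.8 and 13.97 on soft and 13.8 and 14.1 on stiff. RPS15A had 13.9 and 14.03 on soft and 13.7 and 13.7 on stiff. Ranges of these genes overlapped, so their order is not resolved. Among the P-stalk genes, whose proteins recruit elongation factors, RPLP0 had 9.44 and 8.88 on soft and 10.03 and 9.13 on stiff. RPLP1 had 9.61 and 9.36 on soft and 10.3 and 10.7 on stiff.

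**Figure D2:**
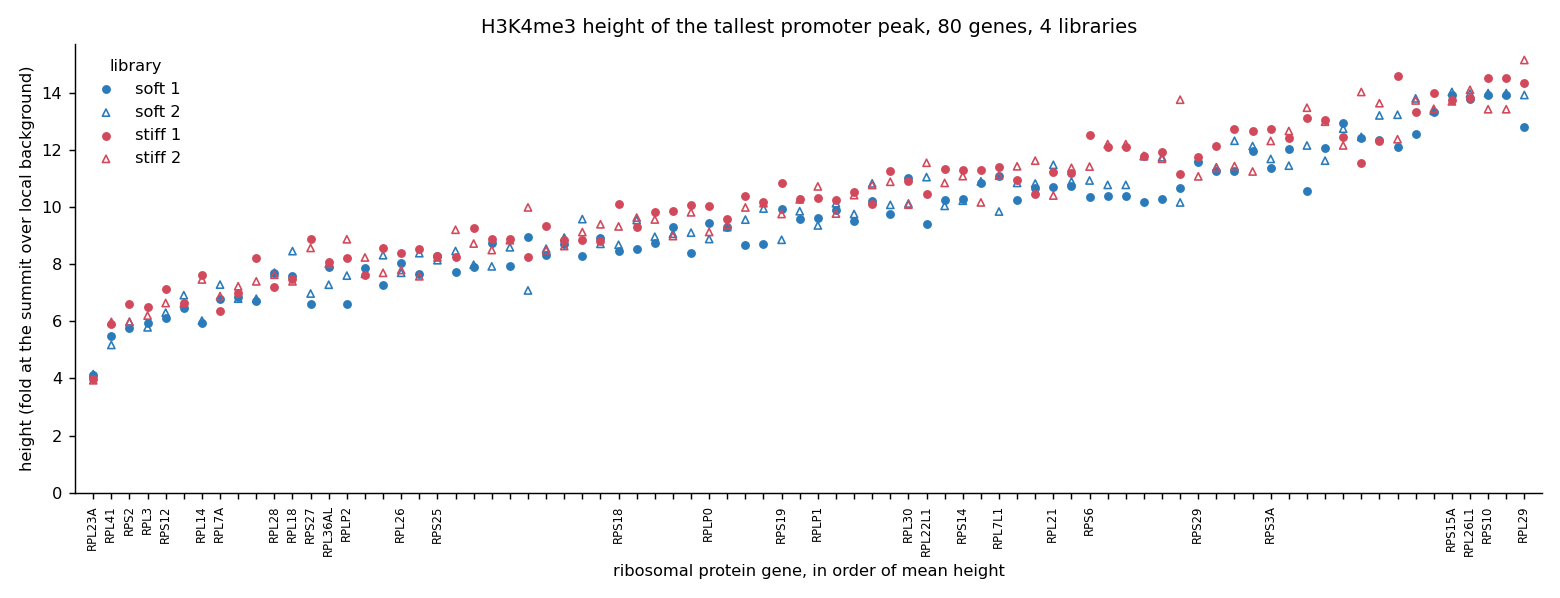
H3K4me3 height (fold at the summit over local background) of the tallest promoter peak, by gene in order of mean height, with the genes of the text labelled; blue is soft, red stiff, filled circles replicate 1 and open triangles replicate 2. The 4 values of a gene lie close together beside the range over genes, from 3.94 at RPL23A to 15.2 at RPL29.

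The order by height was not the order by fragments. For each summit the whole number of fragments and the local background were recovered from the deposited fold and −log10 p. RPL23A held 296 and 370 fragments on soft, then 384 and 551 on stiff, above the member medians of 241, 288.5, 325.5 and 468, over a background of 71.3 to 139 fragments. RPL29, the highest by mean fold, held 167 and 230 on soft and 246 and 338 on stiff, over a background of 12.1 to 21.4. RPL23A thus had more fragments at its summit than RPL29 in each of the 4 libraries. Most fragments of all were at RPL36AL, a copy of the X-linked RPL36A, with 499 and 584 on soft and 728 and 1036 on stiff, although its fold was only 7.28 to 8.08. Over the 80 members, Spearman's rho of fold with fragments was −0.20 to 0.01 in the 4 libraries, and of fold with background −0.66 to −0.56. Over all genes the same rho was 0.02 to 0.08 and −0.37 to −0.34.

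This bears on how the set compares with other marked genes. Ranked by fold among all genes with an H3K4me3 peak in the same library, the median member stood at the 58.4 and 58.0 percentile on soft and at 59.9 and 56.2 on stiff. Ranked by fragments at the summit it stood at 72.7 and 69.9 on soft and 73.7 and 73.8 on stiff. By either ranking the median member lay above the middle in all 4 libraries, and more so by fragments. Member peaks were also wider, with a median of 1473.5 to 1551 bp beside 1241 to 1316 bp over all genes.

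Between matrices the H3K4me3 heights were compared with limma on log2 heights, after each library was centred on its median over the 12170 genes with a peak in all 4 libraries. At an adjusted p under 0.05, limma called 0 of 80 members and 0 of 12170 genes (0%); at an unadjusted p under 0.05 there were 4 members and 1217 genes. The median member change was −0.0035 on the log2 scale, beside −0.0059 over all genes, and 78 of 80 members changed by under 0.25 in size. RPS27, a zinc finger protein of the small subunit, had the largest change. Its deposited heights were 6.59 and 6.97 on soft and 8.87 and 8.57 on stiff, without overlap. The fitted change was 0.28 with a standard error of 0.07 and an adjusted p of 0.32 by limma. RPL14, a large subunit protein, had 5.95 and 6.03 on soft and 7.63 and 7.46 on stiff, with a fitted change of 0.25.

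RPLP2 had H3K4me3 heights of 6.61 and 7.60 on soft and 8.21 and 8.87 on stiff, also without overlap, and a fitted change of 0.19 on the log2 scale. In the other direction RPL18 had 7.60 and 8.46 on soft and 7.47 and 7.40 on stiff, with a fitted change of −0.19. RPL7A had 6.80 and 7.29 on soft and 6.35 and 6.88 on stiff, which overlapped, and RPL23A a change of −0.15. None of these passed the test. In centred heights, both stiff libraries lay above both soft at 17 of 80 members, beside 18.8% of all genes tested, and below both at 18, beside 23%. Without centring, the median change was 0.08 for the members and 0.08 for all genes, so the members had the shift of all genes.

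H3K27ac rests on 1 merged list per matrix, so no replicate error can be given and no test was run. The summits were shallow, with a member median of 25 fragments on soft and 23.5 on stiff. The peak was shared with the start of a gene outside the set at 17 of 58 members on soft and 13 of 52 on stiff. Of the 65 members in at least 1 list, 45 were in both (69.2%, beside 62.1% of all genes in either list). In the soft list alone were 13 (20%), where 30.5% of all genes in either list were in the soft list alone. In the stiff list alone were 7 (10.8%), beside 7.39% of all genes in either list. The soft list is the longer, with 18238 peaks against 13322. With the lists as deposited, the share was 7.32 points lower on stiff for the members and 8.16 points lower for all genes. When the soft list was shortened to the same number by −log10 q, an alternative chosen after seeing the data, the member share became 9.76 points higher on stiff. The sign of the member difference thus changed with list length. The share of all genes at equal length is not given here.

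Members of a single list had a lower median height than those in both, as had all genes of a single list. In the soft list alone, RPL22, a protein that binds a viral RNA as well as the large subunit, was tallest at 8.25, followed by RPS26 at 8.01, RPS7 at 7.42, RPS16 at 7.30 and RPL30 at 6.80. In the stiff list alone were RPL34 at 6.73, RPS6, the substrate of the S6 kinases, at 6.37, RPS13 at 6.02, RPS12 at 5.81 and RPL7A at 5.46. The median height of these 13 and 7 genes was 6.63 and 5.81, beside 7.49 on soft and 6.60 on stiff for the 45 genes in both lists, and RPL22 and RPS26 stood above the soft median of those 45. Over all genes the single-list medians were 6.53 and 6.21, beside 7.22 and 6.80 for genes in both. H3K27ac was in neither list at 15 of the 80 members that had H3K4me3 in all 4 libraries (18.8%), beside 45.5% of all such genes. RPL3, RPL13, RPL14, RPL18, RPL23, RPS2, RPS24 and RPS27 were among them.

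Among the 45 members in both lists, 0 differed by 2-fold or more after centring, as did 0.0237% of 4212 genes in each direction. The median log2 ratio of stiff over soft was −0.02, with a lowest of −0.63 and a highest of 0.49, and 23 of 45 were below 0. RPL21, a large subunit protein, was tallest in both lists at 13.3 and 11.98. The lowest ratio was at RPS14, a small subunit gene lost in the 5q deletion of myelodysplasia, with 8.85 on soft and 5.39 on stiff. The highest was at RPS9, with 7.76 on soft and 10.2 on stiff. Without a second list per matrix, such differences cannot be told apart from the spread between libraries.

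**Figure D3:**
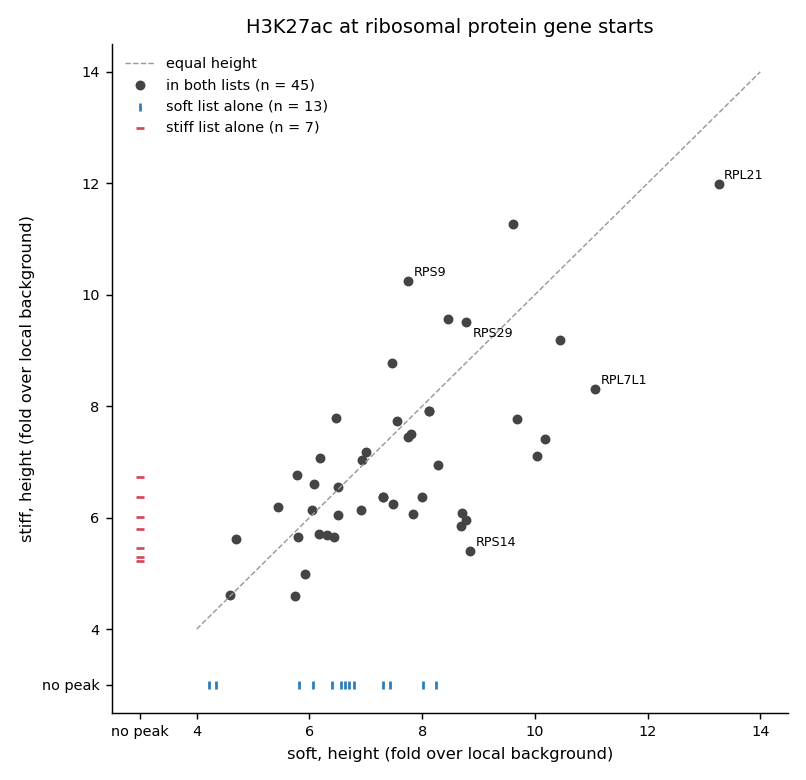
H3K27ac height on soft (x axis) against stiff (y axis), as fold over local background; points are the 45 genes in both lists, and ticks on the margins the 13 and 7 genes in a single list. RPL21 is tallest in both, and points scatter on either side of the dashed line of equal height.

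The rank of the set in H3K27ac also depended on what was ranked. By fold, the median member was at the 58.9 percentile on soft and 39.4 on stiff, a difference of −19.4. Over the genes in both lists it was 55.9 and 44.7. By fragments at the summit, a ranking added after seeing the data, it was 47.4 and 47.1. The fall by fold was thus absent by fragments.

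p-JUN peaks at members were shallower than H3K4me3 peaks, with a median of 46 and 45 fragments on soft, against 40 and 44 on stiff. In all, 21 members (25.6%) had a peak in only 1 to 3 libraries, beside 15.2% of all genes. Among genes with H3K4me3 in all 4 libraries, this held at 21 of 80 members and 2603 of 12170 genes. Part of the distance from all genes thus lies in unmarked promoters. The p-JUN peak was shared with the start of a gene outside the set at 19 of 61 and 18 of 55 members on soft. On stiff this held at 18 of 49 and 19 of 63. RPS29, a zinc-binding protein of the small subunit head, stood highest with 15.5 and 15.6 on soft and 15.6 and 16.7 on stiff. It was also first by fragments, with 466 and 387 on soft and 336 and 429 on stiff, and above the 97.9 percentile of all p-JUN-bearing promoters in each library. RPL21 had 12.2 and 12.9 on soft and 12.6 and 14.1 on stiff. Its range lay below that of RPS29 in every library.

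RPL36AL had p-JUN heights of 11.9 and 12.9 on soft and 13.0 and 13.1 on stiff, and the start of MGAT2 lies beside its own. RPS19, the gene most often mutated in Diamond-Blackfan anaemia, had 12.4 and 12.5 on soft and 10.2 and 13.2 on stiff. RPS3A had 11.4 and 10.7 on soft and 10.3 and 10.3 on stiff. Ranges of RPL21, RPL36AL and RPS19 overlapped. Lowest of the 47 members called in all 4 libraries was RPL41, with 4.15 and 3.34 on soft and 4.65 and 4.23 on stiff. RPL3, RPS27, RPS18 and RPL26 followed, between 4.17 and 6.30.

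**Figure D4:**
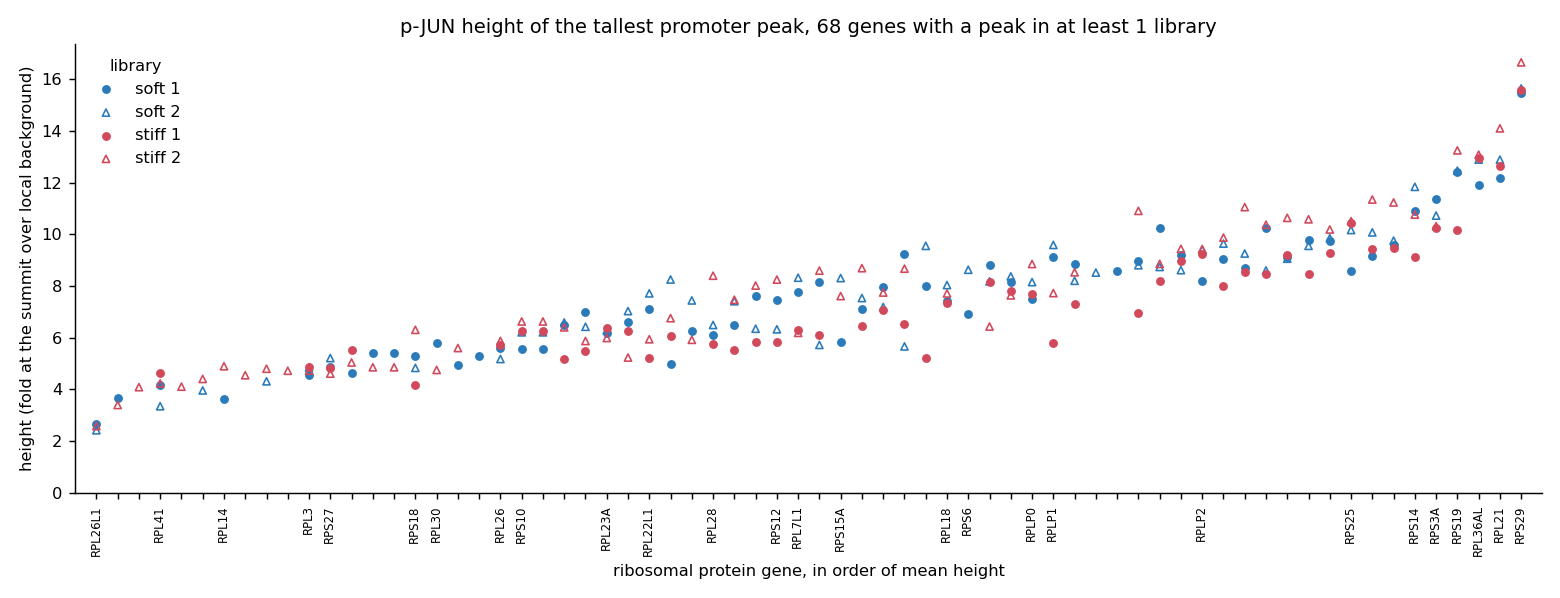
p-JUN height (fold at the summit over local background) for the 68 genes with a peak in at least 1 library, in order of the mean over the libraries with a peak, with genes of the text labelled; symbols as for H3K4me3 heights, and a missing symbol is a library with no peak. RPS29 stands above all others in each library, and many genes at the low end lack a peak in 1 or more libraries.

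p-JUN was called in no library at 14 members, 12 of which had H3K4me3 in all 4. RPL7A, RPL11, RPL22, RPL29, RPS2 and RPS7 were among those 12, and RPL29 was also the highest by mean H3K4me3 fold. Of the 12, 4 had H3K27ac in neither list, RPL12 and RPS2 among them. RPS6 was the only member called in both soft libraries and in neither stiff library, with heights of 6.91 and 8.63, a pattern seen at 0.941% of all genes, and no member showed the reverse (0.27% of all genes). Another 6 members were called in soft replicate 1 and stiff replicate 2 alone (7.32% of members, 1.75% of all genes). They were RPL8, RPL14, RPL17, RPL17-C18orf32, RPL23 and RPL30, where RPL17-C18orf32 has the same peak as RPL17. Soft replicate 1 and stiff replicate 2 hold the longest p-JUN lists of each matrix, and a link with list length was not tested.

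The share of members with p-JUN did not follow the matrix. The soft libraries had 74.4% and 67.1% and the stiff ones 59.8% and 76.8%, beside 49.1%, 47.0%, 41.4% and 49.8% of all genes, in the same order. The member shares had means of 70.7% ± 5.17 and 68.3% ± 12.1 (SD, n = 2 libraries each) and p = 1 in an exact two-sided permutation test. The difference of −2.44 points stood beside −2.46 points over all genes. With 2 libraries against 2 the smallest p that this test can give is 0.33, so it cannot reach 0.05. By fold, the median member stood at p-JUN percentiles of 51.3 and 60.1 on soft, against 44.3 and 46.9 on stiff. The 2 groups did not overlap, and the exact two-sided permutation p was 0.33, the smallest possible. Over the genes with a peak in all 4 libraries the percentiles were 52.9 and 53.2 on soft, against 43.4 and 50.3 on stiff, and the difference went from −10.1 to −6.20. Without soft replicate 2 it was −5.74. By fragments the percentiles were 41.4 and 45.2 on soft and 42.2 and 42.4 on stiff, which overlapped.

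In p-JUN heights limma called 0 of the 47 members with a peak in all 4 libraries and 2 of 7479 genes, 0.0134% in each direction; at an unadjusted p under 0.05 there were 3 members and 447 genes. RPLP1, which with RPLP2 forms the dimers of the stalk, had the largest change. Its heights were 9.12 and 9.59 on soft and 5.79 and 7.72 on stiff, without overlap, with a fitted change of −0.48 (standard error 0.13) and an adjusted p of 0.63 by limma. RPL22L1, a copy able to stand in for RPL22, had 7.13 and 7.71 on soft and 5.20 and 5.94 on stiff, and a fitted change of −0.41. RPL7L1 had 7.78 and 8.32 on soft and 6.31 and 6.18 on stiff, and a fitted change of −0.36.

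These p-JUN changes did not pass the test, although the groups did not overlap at any of the 3 genes. On simulated data the p-JUN step found only 1 of 50 genes raised and 3 of 50 lowered by 0.5. It could thus seldom call changes of this size. The largest changes upward were 0.25 at RPL41, 0.17 at RPS25 and 0.15 at RPL28, and the groups overlapped in deposited height at RPL28. In centred heights, both stiff libraries lay above both soft at 7 of 47 members, beside 19.4% of all genes, and below both at 7, beside 15.8%. The median change of the members was 0.0019 on the log2 scale and that of all genes 0.0086.

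H3K27ac and p-JUN were found at overlapping sets of members. At least 1 H3K27ac list held 91.5% of the 47 members with p-JUN in all 4 libraries, 66.7% of the 21 with p-JUN in 1 to 3 and 66.7% of the 12 marked members with none. Over all genes with H3K4me3 in all 4 libraries the same shares were 72.2%, 40.8% and 18.3%. The member share was higher than that of all genes in each class; this difference was not tested. Heights were less related: over the 34 members with both, Pearson's r of mean p-JUN with mean H3K27ac log2 height was 0.09 and Spearman's rho −0.04, beside 0.43 and 0.40 over 3545 genes, as a description over genes of the same libraries.

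The position of the summits differed by antibody. Measured from the start of the canonical transcript, with downstream positive, the median H3K4me3 summit of the members was at 51 to 146.5 bp, nearer the start than the 206 to 221 bp of all genes. The median p-JUN summit was upstream, at −133 and −140 bp on soft and −150 and −148 bp on stiff, where that of all genes was at −69 to −49 bp. Only 24.6% to 33.3% of the members' p-JUN summits lay downstream of the start, against 43.8% to 45.8% over all genes. H3K27ac summits of the members had medians of −49 bp on soft and −60.5 bp on stiff. RPL6 was an exception, with its tallest p-JUN summits at −9706 to −9392 bp, near an alternative start.

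**Figure D5:**
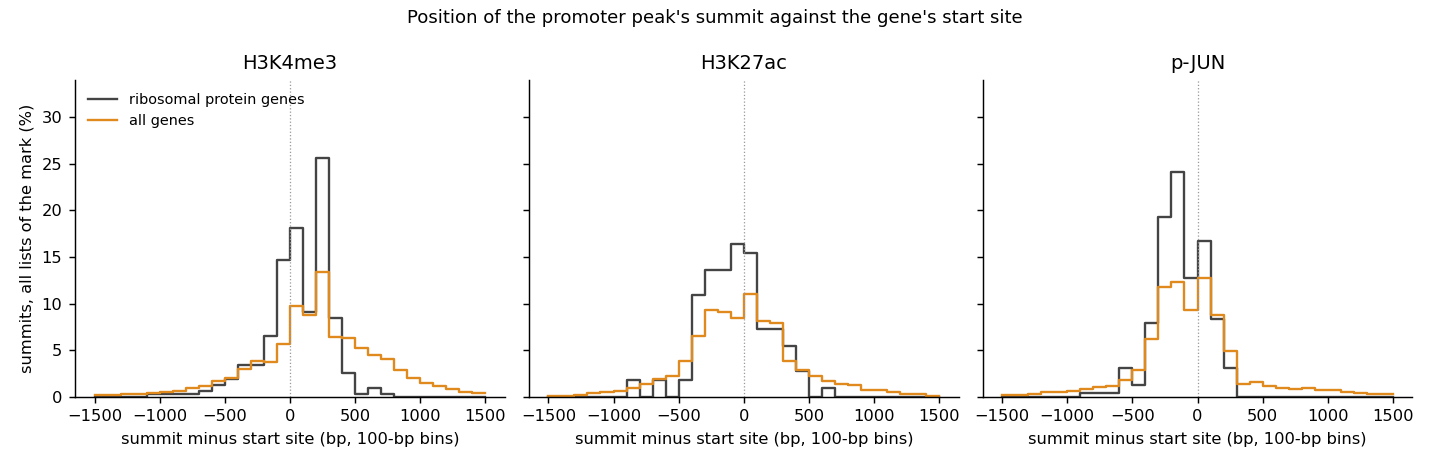
Distance of the promoter peak's summit from the canonical start, in 100-bp bins within 1500 bp, as percent of all summits of the mark; dark lines are ribosomal protein genes, orange lines all genes, and negative values are upstream. For ribosomal protein genes p-JUN summits pile up just upstream of the start and H3K4me3 summits around and just downstream of it.

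The letters under these p-JUN summits were then read from hg19. An AP-1 site (TGANTCA, the same on both strands) centred within 50 bp of the summit was present at 0 of 59, 0 of 54, 0 of 48 and 0 of 61 distinct member peaks in soft 1, soft 2, stiff 1 and stiff 2. If peaks were independent draws, these counts of 0 would allow shares of up to 5.08%, 5.56%, 6.25% and 4.92%, as approximate upper 95% limits. The 4 libraries hold largely the same genes, so the limits are not separate tests. The site was present at 11.4%, 11.5%, 12.8% and 10.3% of the promoter peaks of all genes in the same libraries, and at 36.9% to 39.0% of all autosomal p-JUN peaks. In the window from 250 bases before to 50 bases after the start, AP-1 letters were found at 1 of 82 members (1.22%), RPL24, and at 5.36% of all genes and 3.59% of those with H3K4me3 in all 4 libraries. The absence of a match says only that these letters are not in the window.

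Other motifs, each searched on both strands of the same 300 bases, were held by different shares. The ETS core CCGGAA was in the window of 47 members (57.3%) and 22.8% of all genes, or 31.4% of those with H3K4me3 in all 4 libraries. AAGATGG, a YY1 core, was in 15 (18.3%) against 6.33% of all and 7.72% of marked genes. The SP1 core GGGCGG was in 47 (57.3%) against 61.3% of all and 75.6% of marked genes. TATAAA was in 9 (10.98%) against 9.83% of all and 4.92% of marked genes. Within 50 bp of p-JUN summits the ETS core was at 18.5% to 29.2% of member peaks and 7.80% to 8.09% of those of all genes. The ETS core was in the window of 28 of 47 members with p-JUN in all 4 libraries (59.6%) and 7 of 14 with it in none (50%), beside 29.3% and 14.5% of all genes in those classes.

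Promoter stretches that overlap no annotated exon are shown for a pair of genes with p-JUN in all 4 libraries. In RPS19, among the highest by p-JUN, capitals mark the 11 bases centred on each p-JUN summit that lies in the stretch.
RPS19 (250 to 1 bases before the start, chr19:42364075-42364324, plus strand): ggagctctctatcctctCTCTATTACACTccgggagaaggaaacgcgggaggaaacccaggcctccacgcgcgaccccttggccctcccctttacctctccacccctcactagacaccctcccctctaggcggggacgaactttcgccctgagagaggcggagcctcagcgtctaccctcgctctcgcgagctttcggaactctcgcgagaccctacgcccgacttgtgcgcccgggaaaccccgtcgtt
In RPS19 the summits lay at −227 and −228 bp on soft and at −227 bp in stiff 2, and at −308 bp, outside the stretch, in stiff 1. At RPS29, the highest by p-JUN, they lay at −174 and −175 bp on soft, then at −225 and −226 bp on stiff. For RPS14 capitals mark the ETS core instead.
RPS14 (250 to 1 bases before the start, chr5:149829303-149829552, minus strand): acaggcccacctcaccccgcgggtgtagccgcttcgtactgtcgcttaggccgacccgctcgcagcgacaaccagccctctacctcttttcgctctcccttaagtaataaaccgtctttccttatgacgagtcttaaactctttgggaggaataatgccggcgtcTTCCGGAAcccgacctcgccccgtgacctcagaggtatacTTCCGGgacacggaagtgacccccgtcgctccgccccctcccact
RPS14 held 3 matches, 2 of them overlapping on opposite strands. The core of the cAMP response element, TGACGTC, which was searched only after the RPS29 promoter had been read, was in the window of 6 members (7.32%), namely RPL3, RPL13, RPL18, RPLP2, RPS28 and RPS29, against 4.54% of all and 6.02% of marked genes. Of these 6, 5 had p-JUN in all 4 libraries, RPS29 that prompted the search included, beside 65.3% of all genes with the core. Within 50 bp of p-JUN summits the core was at 5.08%, 3.70%, 0% and 1.64% of member peaks in soft 1, soft 2, stiff 1 and stiff 2, beside 3.09% to 3.81% of those of all genes.

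Other genes of protein synthesis and turnover gave no calls between matrices either. Limma called 0 in either direction for H3K4me3 and for p-JUN among mitochondrial ribosomal proteins, initiation factors, elongation factors and proteasome subunits. H3K4me3 was present in all 4 libraries at 78 of 78 mitochondrial ribosomal protein genes, 50 of 53 initiation factors, 15 of 15 elongation factors and 37 of 39 proteasome subunits. The median H3K4me3 percentile by fold was 75.4 for mitochondrial ribosomal proteins and 70.7 for proteasome subunits, above the 58.3 of the ribosomal protein genes. It was 56.1 for initiation factors and 36.7 for elongation factors. p-JUN was in all 4 libraries at 44 of 78, 31 of 53, 14 of 15 and 22 of 39 genes of these lists, in the same order.

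RPSA and FAU, outside the rule by symbol, were both marked by H3K4me3 in 4 libraries. RPSA, also a laminin receptor precursor, had H3K4me3 heights of 13.2 and 13.9 on soft and 14.5 and 14.5 on stiff, and p-JUN heights of 9.21 and 8.78 on soft and 7.99 and 9.41 on stiff. FAU, made as a fusion to a ubiquitin-like sequence, had H3K4me3 at 9.15 to 9.55, and p-JUN was called there in 1 library.

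The genome also holds many retroposed copies of these genes, which share exon sequence but not the promoter. Of 1525 annotated ribosomal protein pseudogenes, 18 or 19 per library had an H3K4me3 peak within 1 kb of their start (1.18% to 1.25%). Among the 1461 at more than 2 kb from any protein-coding start, 2 to 4 did (0.137% to 0.274%). p-JUN was called at 3.02% to 3.54% of all copies. Reads that fall on near-identical exons cannot be assigned with certainty.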

How the data were processed

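LX-2 cells were profiled by CUT&Tag. The authors trimmed reads with Trim Galore, aligned them with Bowtie2 to hg19, handled duplicates with Picard and used MACS2 for peaks, whose version, options and control are not given in the sources used here. The deposited lists give each peak a fold and the authors' −log10 p, −log10 q and a score. Those of H3K4me3, H3K27ac and p-JUN also give a summit offset, and their fold is a ratio of summit to local background. The H3K27me3 lists give no summit, so no fragments were recovered for them. Lists were not scaled to each other. Read totals were not analysed here, and fragments at summits (recovered from fold and −log10 p with a relative error under 1e-04) stood for depth.

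Members, gene lists and motifs were chosen with earlier results of these data known. The tallest peak within 1 kb of a GENCODE start was used. limma 3.58.1 (R 4.3.3; Benjamini-Hochberg adjustment over all genes tested) compared log2 heights, centred per library, over genes with a peak in all 4 libraries. Shares and percentiles had exact permutation tests over libraries. On simulated data with 12170 genes, the H3K4me3 step found 46 of 50 genes raised and 43 of 50 lowered by 1 log2 unit, and 33 and 23 of 50 at 0.5. The p-JUN step on 7479 genes found 35 and 31 of 50 at 1, and 1 and 3 at 0.5. Named members were those lacking H3K4me3, the 5 highest and 5 lowest by H3K4me3 and by p-JUN, the 3 largest changes each way where none was called, up to 5 per H3K27ac list among those in a single list, and the P-stalk genes. RPL36AL by fragments, RPS9 and RPS14 in H3K27ac, RPL6 and the printed promoters were chosen after their values were seen. Sequences were read from the GRCh37 genome with python 3.11.15, and none of the members on chromosome 8 is printed. Some members and sequences are not reported here. Alternatives covered the window (500 bp, 2 kb), start sites, nearest peak, −log10 q of 10 (2 for H3K27me3), shared peaks, scaling, fragments, replicates and the replicate block. Another 4 alternatives were added after seeing the data.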

Additional observations from a re-analysis of the deposited data

How the results depend on the processing

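Of 170 alternative values of 13 results, 157 were counted as the same: 146 kept their sign or count and 11 changed sign. These 11 were median changes near 0: 1 for H3K4me3, 7 for p-JUN (−0.0191 to 0.0096 over all alternatives, against 0.0019) and 3 for H3K27ac (−0.10 to 0.0673, against −0.0165). H3K27ac has 1 list per matrix, so neither these 3 values nor the other alternatives of its median can be set against a spread between libraries. Counting them as the same is no measure of how stable that median is. Limma called 0 members under every alternative for H3K4me3 and p-JUN. The median H3K4me3 change of −0.0035 became 0.0792 without centring and 0.0604 with fragments at the summit, and lay between −0.0096 and 0.0204 with 1 library left out. The H3K4me3 percentile difference of −0.17 became 0.0288 with a 2 kb window, 0.37 with the start of the gene record, 0.79 without members sharing a peak and 2.46 by fragments, and lay between −2.03 and 1.69 with 1 library left out. The H3K27ac share difference of −7.32 points, beside −8.16 over all genes, became 9.76 with lists of equal length, where the value over all genes is not given. The H3K27ac percentile difference of −19.4 became −0.33 by fragments. The p-JUN share difference of −2.44 points lay between −10.98 and 6.10 with 1 library left out, being 1.22 without soft replicate 1 and 6.10 without stiff replicate 1. The p-JUN percentile difference of −10.1 lay between −14.5 and −5.74 with 1 library left out and was −6.20 over genes with a peak in all 4 libraries and −1.05 by fragments. The cause of each was not tested. The correlation of deviations by replicate number was −0.06 for H3K4me3 and −0.01 for p-JUN. With 2 libraries per matrix it cannot settle whether replicate numbers pair the libraries. In this balanced layout the replicate block cannot alter the fitted changes, so the medians of −0.0035 and 0.0019 were fixed. With the block 0 members were called, while p-JUN calls over all genes rose from 2 to 19. A limma setting that lets the variance follow the height also leaves fitted changes unaltered, and the block leaves shares and percentiles unaltered. Such values are among the 157 and test nothing. Summits of 23.5 to 46 fragments limit H3K27ac and p-JUN more than H3K4me3.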
